A study of Mus musculus with 2 samples.

Results

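The 8 genes described here belong to the corticosteroid system and were measured in hippocampal RNA: the receptors Nr3c1 and Nr3c2, the steroid enzyme Hsd11b1, the receptor co-chaperones Fkbp5 and Fkbp4, and the response genes Sgk1, Tsc22d3 and Plin4. They were taken by symbol, each symbol had 1 gene identifier, and these 8 were among 55536 mouse genes in the tables. The 2 libraries of total RNA came from adult 5xFAD/CAST females, 8 to 10 months old, and from tissue that the labels call a layer of the hippocampus. 5xFAD mice carry human transgenes with familial Alzheimer mutations under the neuronal Thy1 promoter, and CAST is a wild-derived inbred strain. Both libraries form 1 group, named replicates 1 and 2, and share 1 donor record, which leaves unsettled whether 1 animal or several gave the RNA. No treatment is named and no group without the transgenes was analysed here, so the data give levels, transcript shares and the spread between the libraries, with no test between conditions. Every ± is an SD over these 2 libraries, and with n = 2 that SD may be technical.

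Corticosteroids are adrenal hormones that enter cells and bind receptors of the nuclear receptor family, held ready by Hsp90 and its co-chaperones. The bound receptor moves to the nucleus and acts on genes with glucocorticoid response elements, which are paired short motifs around a spacer. The hippocampus is known for holding both the mineralocorticoid receptor, which binds corticosterone tightly, and the glucocorticoid receptor, which binds it less tightly and is filled mainly at stress or at the daily hormone peak.

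The sequences that follow show where the transcript shares below differ. The first pair is a coding difference in the mineralocorticoid receptor gene, with 12 inserted bases in capitals at chr8:77085667-77085678 (mm10, plus strand), in bases read from the spliced transcripts and given 5′ to 3′ with 30 bases on each side.
Nr3c2-201: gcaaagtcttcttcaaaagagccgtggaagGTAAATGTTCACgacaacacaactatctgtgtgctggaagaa
Nr3c2-204: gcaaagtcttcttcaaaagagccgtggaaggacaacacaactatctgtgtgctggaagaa
The second set is the start of the coding sequence in Sgk1 and Tsc22d3 transcripts that begin at different places, with the start codon in capitals and 45 bases each (mm10, Sgk1 on the plus strand and Tsc22d3 on the minus strand).
Sgk1-201: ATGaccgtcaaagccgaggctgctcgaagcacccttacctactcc
Sgk1-204: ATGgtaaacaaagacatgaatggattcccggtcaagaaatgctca
Sgk1-202: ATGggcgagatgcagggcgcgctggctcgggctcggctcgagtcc
Tsc22d3-201: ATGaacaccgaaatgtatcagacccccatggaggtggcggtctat
Tsc22d3-203: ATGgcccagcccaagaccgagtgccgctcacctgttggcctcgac

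The 250 bases before 3 of the Sgk1 starts are shown because one of them holds a full glucocorticoid response element. They come from RefSeq (GRCm38.p6, the mm10 build), plus strand. Capitals mark the full element (GNACA, a spacer of 3 bases of any kind, then TGTNC), its half-site TGTTCT on either strand and TATAAA.
Sgk1-202 start, chr10:21993640-21993889: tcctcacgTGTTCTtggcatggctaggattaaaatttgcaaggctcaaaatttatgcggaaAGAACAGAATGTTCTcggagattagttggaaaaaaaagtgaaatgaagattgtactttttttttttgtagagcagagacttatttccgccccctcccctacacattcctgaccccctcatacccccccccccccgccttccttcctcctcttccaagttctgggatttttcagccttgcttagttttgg
Sgk1-201 start, chr10:21994416-21994665: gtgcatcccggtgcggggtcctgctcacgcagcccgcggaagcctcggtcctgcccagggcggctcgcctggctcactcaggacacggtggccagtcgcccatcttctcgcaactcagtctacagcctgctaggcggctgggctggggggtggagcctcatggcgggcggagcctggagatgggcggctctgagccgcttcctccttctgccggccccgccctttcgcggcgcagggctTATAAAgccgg
Sgk1-204 start, chr10:21881934-21882183: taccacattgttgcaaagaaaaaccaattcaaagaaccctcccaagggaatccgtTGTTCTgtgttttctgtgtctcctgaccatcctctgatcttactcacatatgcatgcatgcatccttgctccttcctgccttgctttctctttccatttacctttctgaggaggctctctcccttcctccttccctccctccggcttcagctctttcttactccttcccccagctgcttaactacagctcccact

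The libraries held 27682992 and 32169915 expected counts on mouse genes, and the 8 genes held 359 to 6146 expected counts each. Levels are deposited TPM, a share of all transcripts after division by length, and the intervals beside them are the deposited credible intervals of each library, whose level is not stated. Levels of different genes are compared on this scale alone. A gene was called detected at 1 TPM or more in both libraries. All 8 genes were detected, in a background of 27.7% of mouse genes and 60.2% of nuclear protein-coding genes. Markers fitting the labelled tissue were present: 5 of 5 neuronal and 7 of 7 hippocampal subfield markers were detected, with summed levels of 1855 and 2061 TPM for the neuronal and 233.6 and 253.1 TPM for the subfield list in replicates 1 and 2.

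**Figure D1:**
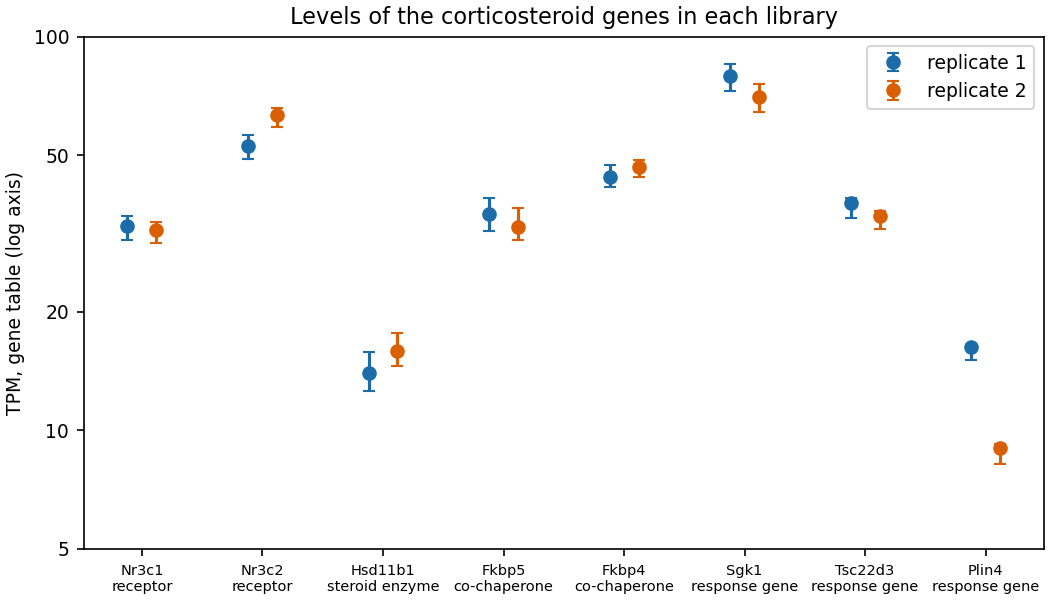
Gene-table level of each gene (TPM, log axis) in replicate 1 (blue) and replicate 2 (orange), with bars for the deposited credible interval of that library. The bars of the 2 libraries overlap for 6 genes and are apart for Nr3c2 and Plin4.

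By mean level in the gene table the order was Sgk1, Nr3c2, Fkbp4, Tsc22d3, Fkbp5, Nr3c1, Hsd11b1 and Plin4. The value ranges of the 2 libraries were apart between Sgk1 and Nr3c2, Nr3c2 and Fkbp4, Fkbp4 and Tsc22d3, and Nr3c1 and Hsd11b1. They overlapped between Tsc22d3 and Fkbp5, Fkbp5 and Nr3c1, and Hsd11b1 and Plin4, so these neighbours do not differ beyond their spread. In the second deposited layout, that of kallisto, Nr3c2 (77.5 ± 1.08 TPM) stood above Sgk1 (74.4 ± 13.8 TPM), and Fkbp5 (37.7 ± 1.44 TPM) above Tsc22d3 (32.5 ± 1.12 TPM), so these orders depend on the layout. The upper 6 genes lay above 74.7% or more of the 13251 detected nuclear protein-coding genes. Hsd11b1 and Plin4 lay above 49.3% and 44.0% of them, near the median level of 15.3 TPM. The 8 genes together held 312.8 TPM in replicate 1 and 305.7 TPM in replicate 2.

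Nr3c2, the mineralocorticoid receptor, was the more abundant of the receptors per length. Its gene spans 345.6 kb of chromosome 8 (76899442 to 77245012, mm10, plus strand). It had 52.8 TPM in replicate 1 (interval 48.8 to 56.4) and 63.5 TPM in replicate 2 (interval 59.0 to 65.7), and a mean of 58.1 ± 7.53 TPM. Replicate 2 was the higher one and the intervals did not overlap. Nr3c1, the glucocorticoid receptor, lies on the minus strand of chromosome 18 (39410545 to 39519421). It had 33.1 TPM (30.5 to 35.0) and 32.3 TPM (30.02 to 33.9), a mean of 32.7 ± 0.559 TPM, with the smallest SD of the 8 genes in the gene table; in the kallisto layout its SD was 1.84 TPM, above those of 5 of the others. The level of Nr3c1 was 0.626 of that of Nr3c2 in replicate 1 and 0.508 in replicate 2, a mean ratio of 0.567 ± 0.0831. Nr3c2 was thus higher in both libraries, by 1.78 ± 0.261 times.

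The size of that ratio moved with the quantification. A separate deposited table, in the layout of kallisto, gave 76.7 and 78.2 TPM for Nr3c2 and 32.9 and 30.3 TPM for Nr3c1, a ratio of Nr3c1 to Nr3c2 of 0.408 ± 0.0295. Nr3c2 was the only one of the 8 genes whose mean differed by 1.2-fold or more between the layouts, against a background of 15.5% of nuclear protein-coding genes at 10 TPM or more. The difference lay on Nr3c2-205, a noncoding transcript of 350 bases, which the kallisto layout put at 29.4 and 20.1 TPM and the RSEM layout at 0.96 and 0 TPM. In counts it was small in both, with 95.4 and 72.5 estimated counts in the kallisto layout. Without that transcript, a step chosen after seeing the data, the kallisto layout gave Nr3c2 52.7 ± 7.67 TPM and a ratio of 0.608 ± 0.123.

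A few transcripts carried most of Nr3c2 in the RSEM layout. Nr3c2-204 took 33.2% and 40.3% of the gene's TPM in replicates 1 and 2, and Nr3c2-203, with the same coding sequence for 980 residues, took 27.2% and 23.1%. Their starts lie 2.52 kb apart. Nr3c2-201, which carries the 12-base insertion shown above and codes for 984 residues, took 10.1% and 11.5%, and 8.97% and 15.0% in the kallisto layout. The inserted form was a minor share in both libraries and both layouts. Nr3c2-208, annotated as a target of nonsense-mediated decay, took 15.2% and 9.36%. Gm10649, annotated as a long noncoding RNA of a bidirectional promoter, overlaps Nr3c2 exons by 247 bases on the other strand. It held 89 and 98 counts, against 4417 and 6146 for Nr3c2. The library kit is directional, but whether strand was used in counting is not given in the sources used here.

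For Nr3c1 the leading transcript by the mean of the libraries was Nr3c1-203 in both layouts, at 62.0% and 48.0% in the RSEM layout and 24.1% and 48.6% in the kallisto layout. Nr3c1-204, which has the same coding sequence for 792 residues and starts 3.43 kb downstream, took 0% and 16.4%, against 26.2% and 10.2% in the kallisto layout, where it led in replicate 1. Its deposited posterior SD in replicate 1 was 294 counts on an estimate of 0.08 counts, so the division between these 2 transcripts is uncertain. Nr3c1-202, which differs from Nr3c1-203 by a single insertion of 3 coding bases, took 6.96% and 7.97% in the RSEM layout and 8.997% and 11.5% in the kallisto layout. Nr3c1-208 took 17.8% and 18.5%, the steadiest of the larger shares of this gene, and Nr3c1-206 took 5.75% and 6.29%. By counts these 2 shorter transcripts took 7.15% and 7.20%, and 0.521% and 0.551%. No exon of another gene overlaps Nr3c1 in the annotation.

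Hsd11b1 encodes the reductase of the endoplasmic reticulum that regenerates active glucocorticoid from its inert keto form inside cells. The gene lies on chromosome 1 (193221634 to 193264075, minus strand). It had 14.0 TPM (12.6 to 15.8) and 15.9 TPM (14.6 to 17.6), a mean of 15.0 ± 1.39 TPM, on 359 and 485 counts, the fewest of the 8 genes. Replicate 2 was slightly higher and the intervals overlapped. Most of it lay on a pair of transcripts with identical coding sequence for 292 residues and starts 21.4 kb apart. The upstream Hsd11b1-205 took 57.2% and 62.6%, and Hsd11b1-201 took 28.3% and 36.8%. The upstream start also led in the kallisto layout, at 43.0% and 66.2%, against 26.7% and 33.2% for Hsd11b1-201.

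Fkbp4 and Fkbp5 are immunophilins that bind Hsp90 in the receptor complex. Fkbp4 is known to favour hormone binding and transport of the receptor, and Fkbp5, itself raised by glucocorticoids, to hold the receptor in a state of low affinity. Fkbp4 (chromosome 6, 128429735 to 128438677, minus strand) had 43.9 TPM (41.5 to 47.2) and 46.6 TPM (43.9 to 48.7), a mean of 45.2 ± 1.85 TPM. Fkbp5 (chromosome 17, 28399094 to 28517527, minus strand) had 35.5 TPM (32.1 to 39.0) and 32.9 TPM (30.5 to 36.8), a mean of 34.2 ± 1.82 TPM. Fkbp4 was the higher of this pair in both libraries, by 1.24 and 1.41 times, with a mean ratio of 1.33 ± 0.125. In the kallisto layout the ratio was 1.12 ± 0.0631.

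Fkbp5 went opposite ways between the libraries on different scales. In TPM it was lower in replicate 2, while its scaled counts were 62.6 CPM in replicate 1 and 66.4 CPM in replicate 2. The mean length that the authors' table assigns to the gene was 2608 bases in replicate 1 and 2972 bases in replicate 2, and the kallisto layout gave 36.7 and 38.7 TPM. The credible intervals, deposited for the gene-table TPM, overlapped. In the RSEM layout the full-length coding Fkbp5-201 (456 residues) took 64.0% and 69.4% of the gene. The noncoding Fkbp5-203 took 22.2% and 16.4% there, or 6.53% and 4.22% of the counts. In the kallisto layout Fkbp5-201 took 51.3% and 47.9%, and Fkbp5-203 took 21.8% and 7.65%. Fkbp5-214, which codes for the last 248 residues alone, was listed at 0 in both libraries of the RSEM layout and took 11.6% and 11.3% in the kallisto layout. Fkbp4 was nearly all Fkbp4-201, at 98.9% and 96.4% in the RSEM layout and 84.1% and 94.5% in the kallisto layout.

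**Figure D2:**
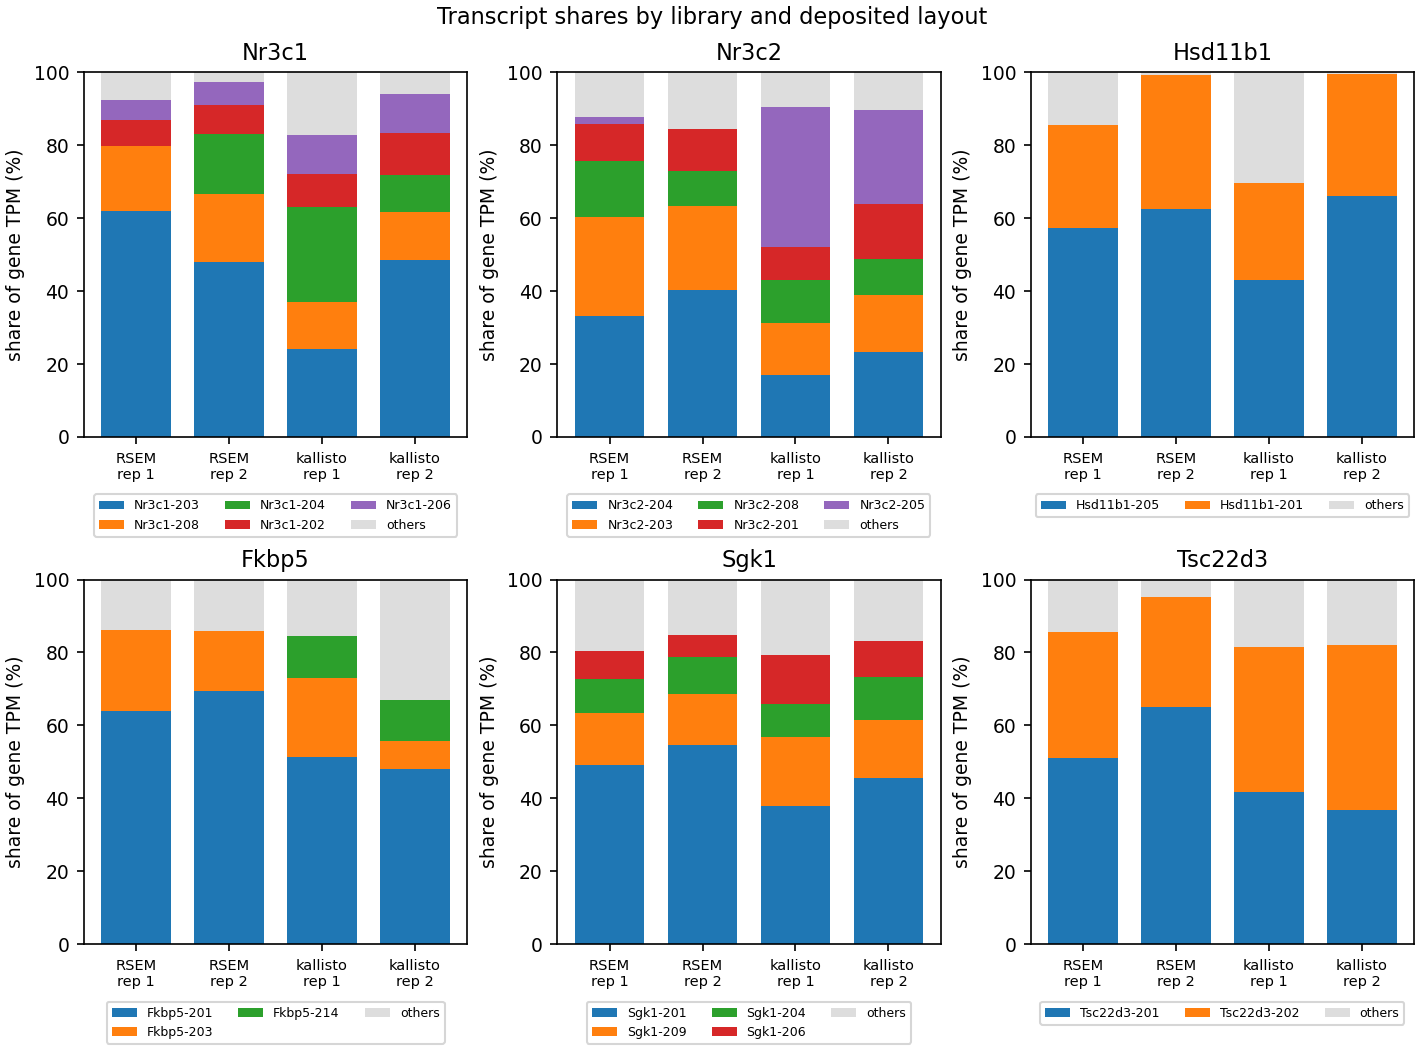
Share of each gene's TPM (%) on its named transcripts, for replicates 1 and 2 in the RSEM and kallisto layouts, with the remaining transcripts in grey. The violet Nr3c2-205 takes 38.3% and 25.7% in the kallisto layout and at most 1.82% in the RSEM layout, while Hsd11b1-205, Fkbp5-201 and Sgk1-201 lead in all 4 bars of their genes.

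Sgk1, a kinase that phosphorylates the ubiquitin ligase Nedd4l and so keeps sodium channels at the membrane, was the highest of the 8 genes in the gene table. It lies on chromosome 10 (21882184 to 21999903, plus strand). It had 79.5 TPM (72.8 to 85.2) in replicate 1 and 70.5 TPM (64.4 to 76.0) in replicate 2, a mean of 75.0 ± 6.34 TPM, and lay above 90.8% of detected coding genes. The intervals of the libraries overlapped. In the kallisto layout it had 84.2 and 64.6 TPM, a mean of 74.4 ± 13.8 TPM, below that of Nr3c2.

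Sgk1 transcripts with different starts code for different first residues, as the coding starts above show, and share the last 406 residues. Sgk1-201, which codes for 431 residues, led with 49.3% and 54.7% in the RSEM layout and 38.0% and 45.5% in the kallisto layout. In the RSEM layout the start cluster it belongs to took 68.8% and 76.6% of the gene, the short noncoding Sgk1-209 (14.0% and 13.9%) included. Shares of TPM weigh short transcripts up: by counts Sgk1-209 took 1.96% and 1.91% of the gene. Sgk1-204 starts 112.5 kb upstream and codes for 524 residues. It took 9.41% and 9.97% in the RSEM layout and 9.11% and 11.7% in the kallisto layout. The libraries were closer in the RSEM layout (SD 0.394) than in the kallisto layout (SD 1.80). The mean share of Sgk1-204 moved by more than its RSEM SD in the kallisto layout. By counts in the RSEM layout it was higher, 16.3 ± 0.420%. Sgk1-202, which starts 776 bases upstream of Sgk1-201, took 4.09% and 2.30% in the RSEM layout and 4.27% and 4.74% in the kallisto layout.

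The full element stands 188 bases before the Sgk1-202 start, in the first of the 3 windows printed above, and TATAAA stands 11 bases before the Sgk1-201 start. RefSeq windows were searched for 7 of the 8 genes, 14 windows in all, and no window of Nr3c1 was searched for these motifs. Of these 14, 1 window held the full element, 4 held TGTTCT on either strand and 2 held TATAAA, with both strands searched for each, and TGTTCT overlaps the full element in the Sgk1-202 window. Among 32851 RefSeq mouse windows of the same length, 0.387% held the full element, 16.1% the half-site and 12.4% TATAAA. Outside Sgk1, the half-site was found in 1 window of Tsc22d3. No window lay at the start of the leading RSEM-layout transcript of Nr3c2, Hsd11b1 or Tsc22d3, so those starts were not searched. The Hsd11b1 window lay wholly within exons of that gene, and 1 Sgk1 window lay 6119 bases from the nearest annotated start. The start with the most transcript in Sgk1, Sgk1-201, was thus not the start with the full element in its window. The Sgk1-202 start lies 776 bases upstream of the Sgk1-201 start on the same strand. The full element therefore also lies upstream of Sgk1-201, beyond the reach of that window. Which of these starts the element acts on was not tested.

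Tsc22d3, a leucine zipper protein known to bind and restrain inflammatory transcription factors, lies on chromosome X (140539528 to 140600659, minus strand). It had 37.8 TPM (34.6 to 39.0) and 35.1 TPM (32.5 to 36.2), a mean of 36.4 ± 1.90 TPM, with overlapping intervals. Tsc22d3-201, which codes for 137 residues, took 51.0% and 65.0% in the RSEM layout and 41.7% and 36.8% in the kallisto layout. The noncoding Tsc22d3-202 starts 519 bases further on and took 34.5% and 30.2%, against 39.9% and 45.3% in the kallisto layout, where it led in replicate 2 and by the mean. The long form Tsc22d3-203 starts 57.5 kb upstream, codes for 201 residues of which the last 97 are shared with Tsc22d3-201, and took 4.24% and 3.59%. The long form was a small share in the kallisto layout too, at 6.92% and 5.11%.

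Plin4, a coat protein of lipid droplets and in rodent brain known as a transcript that glucocorticoids raise, lies on chromosome 17 (56100591 to 56109803, minus strand). It was the gene with the lowest mean in the gene table and the largest ratio between the libraries. It had 16.3 TPM (15.1 to 16.5) in replicate 1 and 9 TPM (8.22 to 9.24) in replicate 2, a mean of 12.7 ± 5.18 TPM, on 1815 and 1141 counts. Replicate 1 was 1.82 times as high in scaled counts, and the intervals were far apart. The kallisto layout gave 15.0 and 8.16 TPM. The layouts put the gene on different transcripts, Plin4-202 with 100% in the RSEM layout and Plin4-201 with 55.7% and 56.6% in the kallisto layout, but these have identical coding sequence for 1403 residues and lengths of 5756 and 5755 bases. Over all 8 genes and 64 transcripts, 5 genes had the same leading transcript in both layouts by the mean of the libraries, the exceptions being Nr3c2, Tsc22d3 and Plin4. Plin4 overlaps exons of Hdgfl2 by 17 bases on the other strand, and that gene held 1684 and 1995 counts, in the opposite order to Plin4.

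Between the libraries, expected counts were rounded, scaled with TMM and given as the log2 ratio of replicate 2 over replicate 1. None of the 8 genes was past 2-fold, against 2.66% of 18906 genes whose mean count was at least 10, 0.290% at a mean count of 100 and 9.58% with no filter. All 8 passed a mean count of 100 as well, and at that count 1 of them, Plin4, was past 1.5-fold, against 1.09% of 13097 genes (8.42% at a mean count of 10). Plin4 stood at −0.86, and 36 of those 13097 genes (0.275%) had a ratio as low or lower. At a mean count of 1000 it was 3 of 5545 genes (0.0541%), and the other 2, named after their values were seen, were Ttr at −1.54 and Prkcd at −1.11.

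The other 7 genes lay between −0.14 and 0.28 on the log2 scale. Nr3c2 stood at 0.28, Hsd11b1 at 0.24, Fkbp4 and Fkbp5 at 0.09, Nr3c1 at 0.01, Tsc22d3 at −0.05 and Sgk1 at −0.14. Above 0 were 5 of the 8 and below it 3, in a background of 47.1% of genes below 0. The median of the 8 was 0.05, beside 0.01 over the 18906 genes, and the median size of the ratio was 0.12 in both. Over genes at a mean count of 1000, which all of the 8 but Hsd11b1 reached, that median size was smaller, 0.07. The credible intervals of 2 of the 8 genes did not overlap, against 8.29% of these 18906 and 17.8% of genes at a mean count of 1000. In bulk tissue a difference of this kind cannot tell fewer cells of a type from less RNA per cell.

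**Figure D3:**
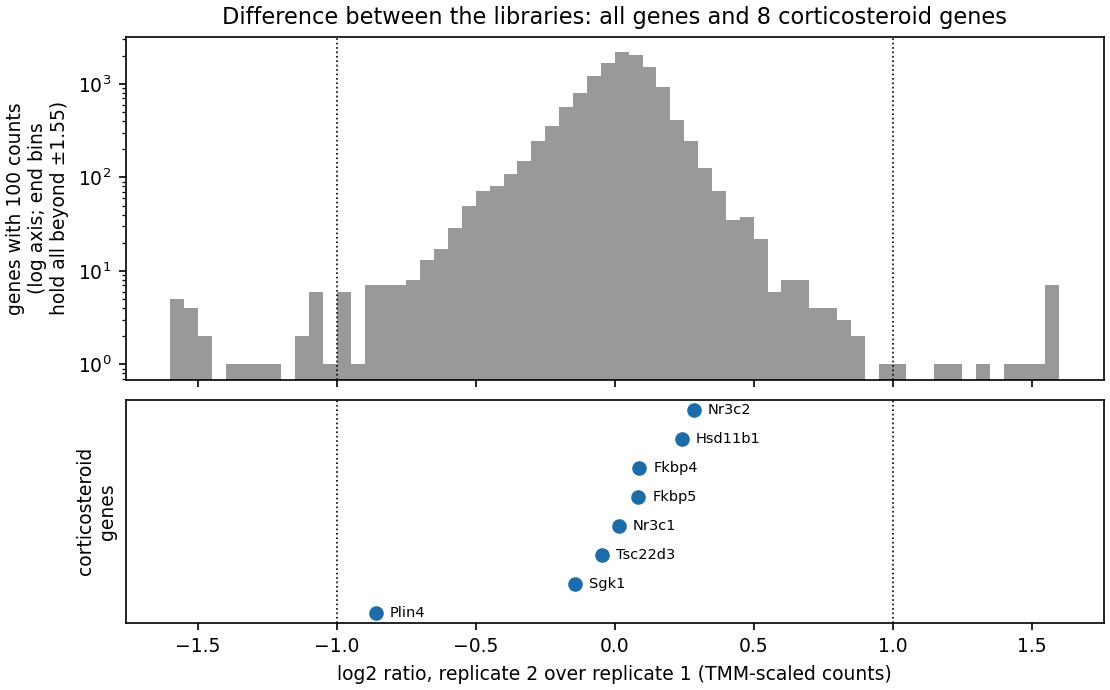
Upper panel: number of genes (log axis) by log2 ratio of replicate 2 over replicate 1 for the 13097 genes at a mean count of 100 or more, with dotted lines at 2-fold. Lower panel: the 8 corticosteroid genes on the same axis, with Plin4 at −0.86 left of the main body of genes and the other 7 between −0.14 and 0.28.

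Some cell type markers also differed between the libraries in the direction of Plin4. All 6 choroid plexus markers were lower in replicate 2, 3 of them past 2-fold, with summed levels of 449.9 TPM in replicate 1 and 157.2 TPM in replicate 2. Ttr, which carries thyroid hormone and retinol and is the defining marker of that tissue, made up most of it, at 426.2 and 146.3 TPM, and Clic6 had the largest ratio in the list, −1.55. Here and below, the largest ratio of a list is taken among its genes with 100 counts or more. All 6 oligodendrocyte markers were lower, with sums of 1937 and 1577 TPM and Mobp at −0.49, and all 5 red blood cell markers, with sums of 289 and 201.6 TPM. All 5 astrocyte markers were slightly lower (sums of 1261 and 1249 TPM) and 4 of 5 microglial markers (404.9 and 383.1 TPM). Of the endothelial markers 4 of 6 were lower (sums of 90.3 and 86.7 TPM). Mural markers summed to 75.2 and 75.0 TPM, but 4 of 5 had a log2 ratio above 0. No marker outside the choroid plexus list was past 2-fold. In the direction of Nr3c2 and Hsd11b1, 5 of 5 neuronal markers were higher in replicate 2, Slc17a7 most at 0.22, and 6 of 7 subfield markers. The part of these markers in the differences of Plin4, Nr3c2 and Hsd11b1 was not tested.

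The Hsp90 machinery that holds the receptors was abundant and steady. All 13 of 13 listed chaperones and co-chaperones were detected, and none was past 1.5-fold between the libraries. Their median in the gene table was 69.6 ± 2.37 TPM, above the gene-table mean of each corticosteroid gene but Sgk1. In the kallisto layout the middle gene of the 13 by mean level, Ahsa1, had 69.1 ± 2.90 TPM. That was below the means of both Nr3c2 (77.5 ± 1.08 TPM) and Sgk1 (74.4 ± 13.8 TPM), so this order depends on the layout. Hspa8, the constitutive Hsp70 chaperone, had 757 and 830 TPM, Hsp90ab1 663.4 and 725 TPM, and Hsp90aa1 402.8 and 422.4 TPM. Bag1, a cofactor of Hsp70, had the largest ratio of the list at 0.16. The 10 listed nuclear receptor coregulators were all detected, with a median of 32.9 ± 1.36 TPM, close to Nr3c1. The corepressor Ncor1 had 112.9 ± 7.61 TPM and the coactivator Ncoa1 52.0 ± 1.27 TPM, and Nrip1 had the largest ratio at 0.20.

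The other steroid receptors were far lower than Nr3c1 and Nr3c2. The progesterone receptor Pgr had 4.93 ± 0.262 TPM and the oestrogen receptor Esr1 1.36 ± 0.148 TPM, while Esr2, at 0.16 ± 0.0141 TPM, was not detected. Of 13 genes of steroid synthesis, transport and breakdown, 8 were detected, against a background of 60.2% of nuclear protein-coding genes. The highest were Cyp7b1, a steroid hydroxylase, at 11.8 ± 0.170 TPM, the efflux pump Abcb1a at 7.74 ± 0.148 TPM, and H6pd, which supplies the cofactor of the Hsd11b1 reductase, at 5.72 ± 0.841 TPM. Star, which carries cholesterol into mitochondria, had the largest ratio of that list, 0.35. With fewer counts, Akr1c14 at −0.70 and Cyp11a1 at 0.77, named after their values were seen, were past 1.5-fold. Hsd11b2, which inactivates glucocorticoid, and Serpina6, the binding globulin of plasma, were named after their values were seen: both had 0 counts in both libraries, which allows up to 0.108 and 0.0933 CPM. Hsd11b1 was higher than each of these 13 genes in both libraries.

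Of 19 other genes known to respond to glucocorticoids, 18 were detected, with a median of 15.99 ± 1.59 TPM. The metal-binding metallothioneins Mt1 and Mt2 led at 514.0 ± 43.1 and 508.6 ± 38.7 TPM, before the transcription factor Klf9 at 61.3 ± 0.856 TPM. Their median log2 ratio was −0.11, with 12 of 19 below 0 and none past 1.5-fold, and Arrdc2 had the largest ratio at −0.36. The log2 ratio of Plin4 was below that of every gene in this list. Of the 8 genes downstream or beside Sgk1, 5 were detected, against a background of 60.2% of nuclear protein-coding genes. The ubiquitin ligase Nedd4l had 85.1 ± 0.0707 TPM, Pdpk1, the kinase that activates Sgk1, 40.5 ± 6.08 TPM, and Rictor 17.2 ± 0.841 TPM. The 6 of these genes with a mean count of 10 or more were all above 0 and none was past 1.5-fold, and of those with 100 counts Pdpk1 was highest at 0.15, while Sgk1 itself was at −0.14.

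**Figure D4:**
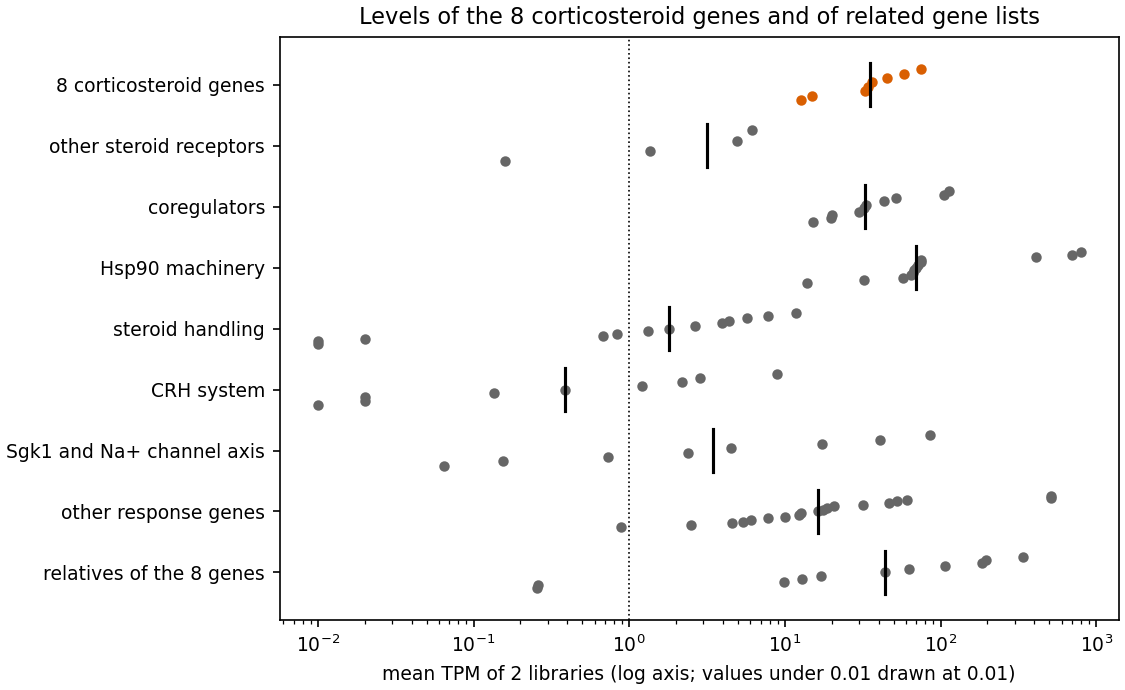
Mean TPM over the 2 libraries (log axis) of each gene, by list, with the 8 corticosteroid genes in orange, a black bar at each list's median and a dotted line at 1 TPM. The 8 genes lie between 12.7 and 75.0 TPM, above all 4 other steroid receptors and all 13 genes of steroid handling.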

How the data were processed

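Total RNA-seq of 2 libraries in 1 group was analysed, 300 ng of RNA each with ERCC spike-ins, per the labels. The authors deposited expected counts, TPM, a posterior SD of the count, credible bounds of the TPM (used as scores of uncertainty) and transcript percent shares per gene or transcript, in RSEM's column layout, and estimated counts and TPM per transcript in kallisto's layout. The build is mm10 and the annotation GENCODE M21, per the file headers and readme; the programs, their versions and the use of strand are not given there. No CAST sequence is named. Rows other than mouse genes (26249, 0.000658% and 0.000659% of expected counts, and 96 ERCC rows, 0.481% and 0.454%) stayed out. TPM is a share of all rows, and expected counts split shared reads by estimate, which makes transcript shares less certain than gene levels.

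Rounded counts were scaled by TMM (edgeR 4.0.16 under R 4.3.3), and log2 ratios of CPM, counts scaled to library size, used a prior count of 2. Transcript shares are percent of the gene's TPM, and starts within 100 bases were joined. A count of 0 was taken to allow 3 counts, for counting error only. Coordinates are from GENCODE M21, motif windows from RefSeq GRCm38.p6 with 250 bases before each RefSeq start. Python 3.11.15, numpy 2.4.6, pandas 2.3.3 and matplotlib 3.10.9 were used. The ratio step was tested on simulated data. Reads carry no molecular identifiers and no batch is named.

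The genes and the 17 lists around them were chosen with earlier results of these data known. Named genes are the 8, the 3 highest of each list, its largest ratio at a mean count of 100, and transcripts with 10% of a gene in either layout, plus Sgk1-202 and Tsc22d3-203 for their starts; lists of cell markers are given mainly as sums, and some genes the rule names are left out here. Alternatives were DESeq2 1.42.0 size factors, library size and ERCC scaling, other prior counts, filters and thresholds, posterior mean TPM, TPM of nuclear coding genes, the kallisto layout, shares of counts and each library alone.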

Additional observations from a re-analysis of the deposited data

How the results depend on the processing

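All 8 genes were detected at 0.5, 1 and 5 TPM, in both layouts, with posterior mean TPM, with TPM rescaled to nuclear coding genes, and in each library alone (8 to 8). The count past 2-fold stayed at 0 under every scaling, prior count and filter tried, and was 1 at 1.5-fold. The median log2 ratio of the 8 lay between 0.02 and 0.11 over the scalings. ERCC scaling shifted all ratios by 0.06 on the log2 scale and turned Tsc22d3 to 0.01, and library size alone turned Nr3c1 to −0.01. In the kallisto layout the ratio of Nr3c1 to Nr3c2 was 0.408, with the difference on Nr3c2-205, and that of Fkbp4 to Fkbp5 was 1.12, whose cause was not tested. In each library alone these ratios ranged from 0.508 to 0.626 and from 1.24 to 1.41, and 5 to 5 genes shared a leading transcript between layouts, against 7 by shares of counts; the 5 were not the same genes, since in replicate 1 Nr3c1 dropped out and Tsc22d3 came in. Of 24 named transcript shares, 21 moved by more than their SD in the kallisto layout, so shares are the values that depend most on the layout. Of 41 recomputed levels 13 moved by more than their SD, without a change in detection. In the kallisto layout these were Nr3c1, Nr3c2, Fkbp5, Fkbp4 and Tsc22d3. The rest were the levels of all 8 genes rescaled to nuclear coding genes, where the smaller total raises every level. Each library alone always lies within the SD of the mean of 2, so those values could not move. No paired analysis was possible because there is 1 group. With 2 libraries and no second group, no alternative bears on a difference between conditions.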

Other observations

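Of 11 listed relatives of Fkbp5, Fkbp4, Tsc22d3 and Plin4, 9 were detected, and the 11 had a median of 43.8 ± 2.43 TPM. Fkbp1a, the small immunophilin that binds rapamycin, had 323.4 and 349.3 TPM in replicates 1 and 2, Tsc22d1 had 186.1 and 204 TPM and Fkbp8, an immunophilin of the mitochondrial membrane, 177.5 and 193.4 TPM. Among those with a mean count of at least 100, Fkbp2 had the largest log2 ratio of replicate 2 over replicate 1, 0.14. Neither of the relatives that were not detected reached 1 TPM; both are perilipins, Plin1 at 0.11 and 0.41 TPM and Plin5 at 0.16 and 0.35 TPM, and they were named after their values were seen.

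Genes of the corticotropin-releasing hormone system were low, with 4 of 9 detected, against a background of 60.2% of nuclear protein-coding genes. Crhbp, which binds the hormone outside cells, had 8.28 and 9.46 TPM, the receptor Crhr1 had 2.57 and 3.10 TPM, and the receptor Crhr2 had 2.57 and 1.78 TPM. The ligand Ucn had 0 counts in both libraries. Crhr1 had the largest log2 ratio among the list's genes with 100 counts, 0.27, and none of its 5 genes with a mean count of 10 or more was past 1.5-fold.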
